A study of Homo sapiens with 4 samples.

Results

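The genes described here are 42 human genes that act in S phase, when a cell copies its DNA, in MCFDCIS cells, which the submitters describe as a basal-subtype breast cancer line. They cover the licensing of replication origins, the replication fork, the supply of nucleotides, the assembly of chromatin on new DNA, and regulators of the step into S phase. A gene was taken from the platform's gene symbols and kept where a probe had a detection p below 0.05 on at least 2 arrays, with the probe of the highest mean standing for the gene. That left 40 of the 42 genes, among 11200 measured genes in all. The other two, CLSPN and CCNE2, had no probe above background on any array.

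The study set Slug siRNA against control siRNA. Slug, the product of SNAI2, is a zinc finger repressor known for its part in epithelial-mesenchymal transition. Cells were transfected with Slug siRNA or control siRNA for 72 hours, with 2 arrays of each, lettered B and A, and total RNA was read on Illumina bead arrays that all lay on 1 chip. The letters stand for 2 biological replicates, and the labels do not say whether these came from separate days. The errors and p-values below therefore describe these arrays only. They come from limma, which draws each gene's error towards a variance pooled over all probes, so an SE is not that gene's own spread. In the comparison of letters the pooled variance had 5.59 degrees of freedom and the gene's own residual 1. All cultures are of this 1 line, and one approximate confluence at lysis is given for all cultures. In the file headers the chip positions of the replicate B arrays are lettered I and J, and those of the replicate A arrays A and B. Replicate letter and chip position therefore cannot be told apart.

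Between 39.8% and 40.8% of probes were detected per array, with a median of 20 to 21 beads per probe. Of the 40 genes, 38 and 40 were detected in Slug siRNA cells B and A, and 39 in control siRNA cells of either letter. SNAI2 itself had log2 normalized intensities of 8.51 (B) and 8.57 (A) with Slug siRNA, against 9.01 (B) and 8.95 (A) with control siRNA. That difference of -0.44 did not pass the test (limma adjusted p = 0.315), nor did the -0.37 of its other measured probe (limma adjusted p = 0.428). Of 8 basal epithelial markers listed, 6 had a probe of 1 symbol on the platform, and all 6 were measured, EGFR, ITGA6, ITGB4 and LAMB3 among them. COL1A2, COL3A1, PDGFRB and DCN of fibroblasts, VWF and CDH5 of endothelium, and PTPRC and CD3E of leukocytes were not above background, whereas COL1A1, PECAM1 and CD68 were measured. COL1A1, a fibroblast collagen, was above background in both A cultures and in neither B culture, at least 1.49-fold higher in A. Its part in the differences between letters was not tested.

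As background, replication starts when the origin recognition complex, CDC6 and CDT1 load the MCM2 to MCM7 helicase on DNA in G1, which licenses each origin for a single use. In S phase CDC45 and the GINS complex join the helicase, PCNA is clamped on by replication factor C, and the DNA polymerases copy both strands while ribonucleotide reductase and thymidylate synthesis keep up the supply of precursors. Most of these genes are transcribed in late G1 and S by E2F factors, which the retinoblastoma family holds in check until cyclin E and its kinase act. In RNA from whole cultures, a larger share of cells in S phase and more of these RNAs per cell cannot be told apart.

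Most replication genes read higher in the B cultures than in the A cultures under both transfections, and the differences between Slug siRNA and control siRNA were smaller in the median. The replicate B minus replicate A difference had a median of 0.52 on the log2 scale over the 40 genes, or 1.44-fold, beside 0.01 over all 11200 genes. It was positive under both transfections for 36 of the 40 genes, against 33.5% of all genes. Both B arrays lay above both A arrays for 29 of them (19.6% of all genes), and below for GINS1 alone (18.6%). None passed an adjusted p of 0.05 in limma with transfection as a term, where no gene at all did (0% of 11200 genes in either direction) and only 1 residual degree of freedom was left. The lowest adjusted p was 0.129, and at an unadjusted p below 0.05 there were 29 genes higher in B (8.06% of all genes) and 1 lower (8.58%). The 1 lower was GINS1, which passed the detection filter through the A arrays alone and was not above background in B. The calls changed with the settings. With a background offset of 50 in place of 16, limma called 28 of the 40, all higher in B, where it called 7.69% of all genes, and without background correction it called 30 of the 40, where it called 12.5%.

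**Figure D1:**
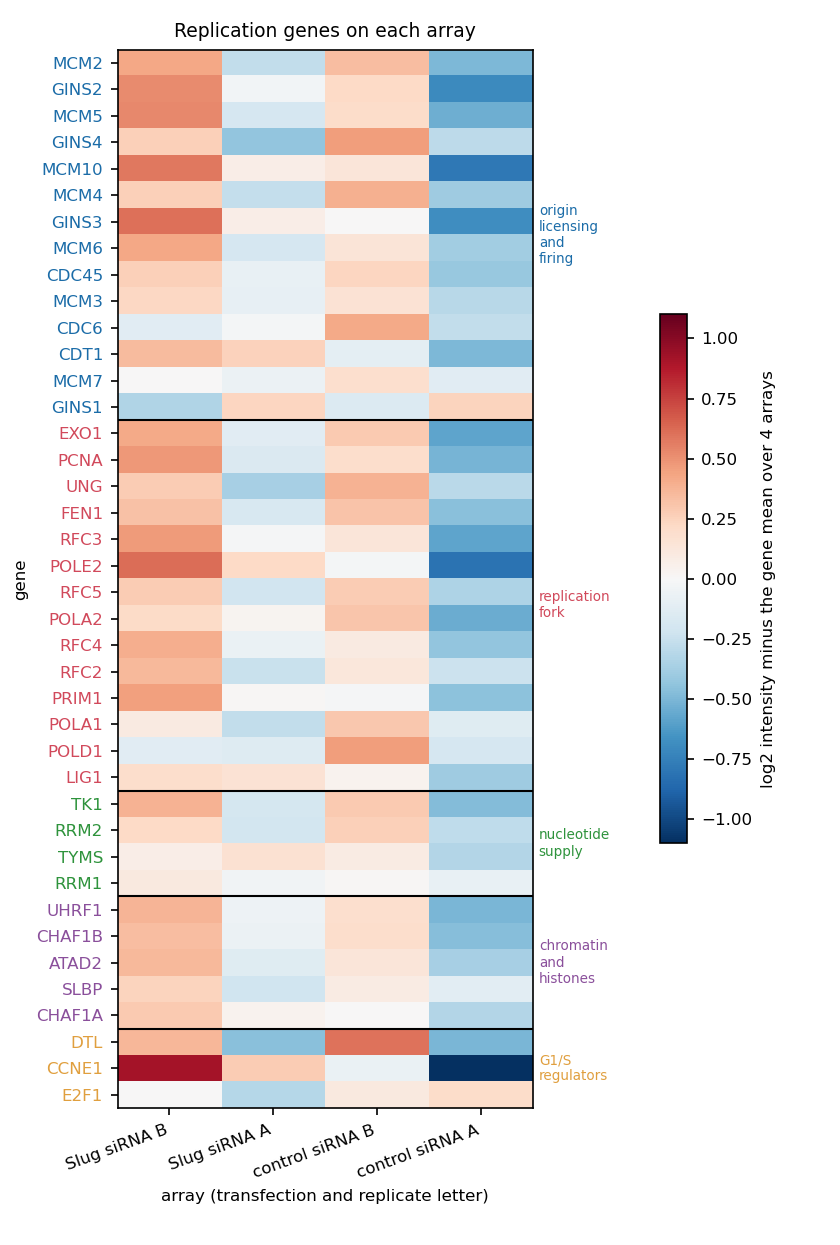
Each row is a replication gene, grouped by step, and each column an array, with Slug siRNA left of control siRNA and B left of A; the colour is the log2 normalized intensity minus that gene's mean over the 4 arrays. The B columns are above the gene's mean for most genes, GINS1 runs the other way, and CCNE1 has its highest value in Slug siRNA B and its lowest in control siRNA A.

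The promoters of these genes are shown because the genes are known as E2F targets, and the letters of the E2F core were counted in them. RefSeq promoters of assembly GRCh38.p14, from 250 bases before to 50 after each start, were listed for 37 of the 42 genes, as 49 promoters. MCM4, MCM5, GINS4, ATAD2 and CCNE2 had no entry. The core was searched on both strands, with overlapping matches counted, as TTGGCGC. The next spelling that counted as a core was TTCCCGC. Another spelling taken in the same way was TTGCCGC. The last of the spellings that were searched was TTCGCGC. At least 1 core stood in 34 of the 49 promoters (69.4%), beside 13.0% of all 35116 listed promoters. Per gene, 31 of 37 had one (83.8%), beside 15.3% of 27305 genes. These promoters were also richer in G and C, with a median of 67.7% against 58.7% over all promoters, and the shares were not matched on that. The CCAAT box was in 57.1% of the 49 and in 34.6% of all, and TTTGAA, the cell cycle homology region of many mitotic genes, was in 4.08% against 15.2%. A match is a run of letters and not a bound site.

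One promoter per step is printed below, from the gene with the largest replicate B minus replicate A difference among those with a core, with CCNE1 for its difference between transfections and GINS1 as the gene that read lower in B. Each run is 170 bases, 5′ to 3′ on the gene's strand, with 120 bases before the start, and capitals mark the E2F core on either strand.
MCM2, chr3:127598291-127598460, plus strand: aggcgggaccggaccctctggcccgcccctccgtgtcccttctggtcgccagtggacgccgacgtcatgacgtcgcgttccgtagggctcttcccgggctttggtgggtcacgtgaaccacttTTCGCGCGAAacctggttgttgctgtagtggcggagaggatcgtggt
EXO1, chr1:241848084-241848253, plus strand: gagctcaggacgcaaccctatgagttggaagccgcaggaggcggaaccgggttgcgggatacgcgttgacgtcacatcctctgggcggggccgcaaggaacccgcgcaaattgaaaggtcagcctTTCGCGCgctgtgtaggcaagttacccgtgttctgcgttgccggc
TK1, chr17:78187003-78187172, minus strand: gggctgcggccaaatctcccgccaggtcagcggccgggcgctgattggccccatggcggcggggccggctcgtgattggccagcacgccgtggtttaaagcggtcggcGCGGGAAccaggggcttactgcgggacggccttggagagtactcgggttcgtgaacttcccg
UHRF1, chr19:4909381-4909550, plus strand: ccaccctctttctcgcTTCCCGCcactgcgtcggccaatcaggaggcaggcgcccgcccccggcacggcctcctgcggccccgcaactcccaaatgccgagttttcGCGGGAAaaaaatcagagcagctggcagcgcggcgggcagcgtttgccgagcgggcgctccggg
DTL, chr1:212035628-212035797, plus strand: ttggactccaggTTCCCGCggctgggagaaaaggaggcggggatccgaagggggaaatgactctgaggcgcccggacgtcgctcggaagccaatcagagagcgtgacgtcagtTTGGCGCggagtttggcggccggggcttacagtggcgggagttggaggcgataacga
CCNE1, chr19:29811871-29812040, plus strand: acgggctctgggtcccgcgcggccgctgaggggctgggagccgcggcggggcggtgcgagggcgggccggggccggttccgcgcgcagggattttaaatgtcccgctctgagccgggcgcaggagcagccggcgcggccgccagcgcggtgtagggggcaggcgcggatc
GINS1, chr20:25407553-25407722, plus strand: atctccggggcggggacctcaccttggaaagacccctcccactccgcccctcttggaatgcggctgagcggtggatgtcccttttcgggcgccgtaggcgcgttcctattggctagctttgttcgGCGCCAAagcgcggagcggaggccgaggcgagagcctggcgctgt

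MCM2 held a pair of overlapping cores just after the start, and EXO1 and GINS1 held 1 there. TK1 had its core just before the start, UHRF1 and DTL had 2 each, and CCNE1 had none of these letters in its window. EXO1 and TK1 have 2 listed starts each and UHRF1 has 3. Of a gene's starts, the 1 with the most cores is shown, so the other starts may hold fewer. Over the 55 cores of the 49 promoters the median position was -23 bases from the start, negative being upstream, and 54.5% lay within the 100 bases before it. Over the 5256 cores of all promoters the median was -94 bases and the share 36.5%. Among the measured genes, the 30 with a core had a median replicate B minus replicate A difference of 0.51, and the 6 listed without one (MCM10, CDC45, POLD1, FEN1, SLBP and CCNE1) had a median of 0.57. GINS1, which read lower in B but was not above background there, is among those with a core.

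**Figure D2:**
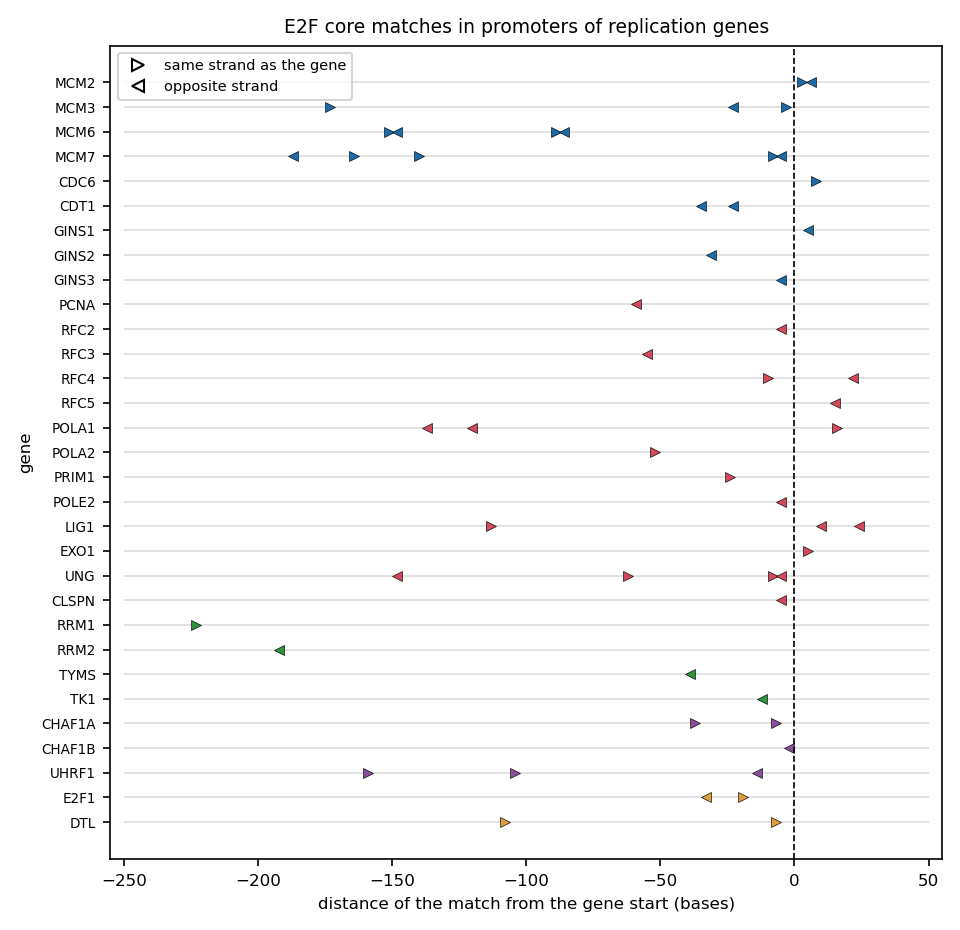
Positions of the E2F core around the start of transcription: each row is one of the 31 genes with a core, and a triangle marks a match by its distance from the start in bases, pointing right on the gene's strand and left on the opposite strand. Of the 55 matches, 54.5% lie in the 100 bases before the start.

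Among the licensing genes, all 6 MCM helicase subunits had both B arrays above both A arrays (19.6% of all genes). MCM2 read 9.55 and 9.46 in the B cultures (Slug siRNA and control siRNA), against 8.85 and 8.62 in the A cultures. MCM5 read 9.48 and 9.16 in B, against 8.77 and 8.42 in A. MCM6 read 11.50 and 11.21 in B, against 10.88 and 10.69 in A. The letters differed by a mean of 0.77 ± 0.14 for MCM2, 0.73 ± 0.13 for MCM5 and 0.57 ± 0.13 for MCM6 (SE, limma adjusted p = 0.143, 0.143 and 0.163, 2 arrays per letter). MCM4 read 10.43 and 10.56 in B, against 9.91 and 9.78 in A, a difference of 0.65. MCM3 read 11.85 and 11.78 in B, against 11.53 and 11.32 in A, a difference of 0.39. MCM7 was the subunit with the smallest difference, 0.19, with 11.98 and 12.16 in B against 11.91 and 11.85 in A, and its other measured probe gave 0.50. Between transfections the 6 subunits lay from -0.06 (MCM7) to 0.34 (MCM5), with no adjusted p below 0.738.

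Of the loaders, CDT1 had a smaller difference than most of the helicase subunits, and CDC6 was too near background to be ranked. CDT1, which brings the MCM ring to the origin, read 10.47 and 10.02 in B, against 10.38 and 9.63 in A, a difference of 0.24. Its arrays separated by transfection instead, since 10.47 (B) and 10.38 (A) with Slug siRNA stood above 10.02 (B) and 9.63 (A) with control siRNA, by 0.60 ± 0.19 (SE, limma adjusted p = 0.264). CDC6, the ATPase that loads the helicase with CDT1, was near background, with a detection p below 0.05 in 1 of the 2 arrays of each letter and of each transfection. Its values were 4.90 and 5.44 in B, against 5.00 and 4.75 in A, so its direction differed between the transfections.

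MCM10 and the GINS subunits, which turn the loaded ring into a working helicase, were among the higher genes in B. MCM10 read 8.91 and 8.46 in B, against 8.40 and 7.54 in A, and differed by 0.71 ± 0.15 (SE, limma adjusted p = 0.155), and by 1.08 at its other measured probe. GINS2 read 11.41 and 11.11 in B, against 10.86 and 10.19 in A, a difference of 0.74. GINS3 read 9.48 and 8.87 in B, against 8.95 and 8.19 in A, a difference of 0.61. Within each letter the Slug siRNA array of MCM10, GINS2 and GINS3 was also the higher one. GINS4 read 7.13 and 7.33 in B, against 6.43 and 6.58 in A, a difference of 0.72, here with the control siRNA array higher in both letters. CDC45, the helicase partner of GINS, read 10.59 and 10.55 in B, against 10.24 and 9.90 in A, a difference of 0.50. GINS1 was above background in both A cultures (5.13 with either siRNA) and in neither B culture (4.56 and 4.74), so A was at least 1.15-fold higher, and this subunit ran against the other three. GINS1 passed the detection filter through the A cultures alone, and its B values were background readings, so only that lower bound can be read. Over the 14 licensing genes the median replicate B minus replicate A difference was 0.59. Of these, 10 were separated by letter in the direction of higher B (19.6% of all genes).

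**Figure D3:**
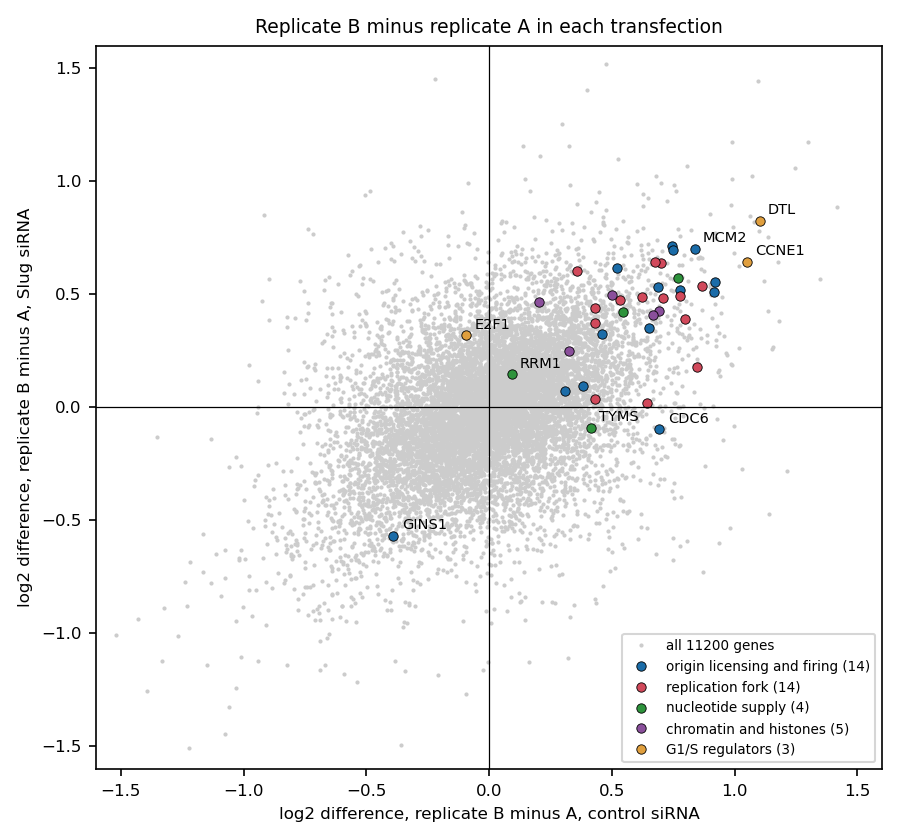
Replicate B minus replicate A difference of each gene, on the log2 scale, in Slug siRNA cells and in control siRNA cells, with the replication genes in colour over the 11200 measured genes in grey; 10 genes fall outside the axes, which end at 1.6. The coloured points lie mostly in the upper right, 36 of 40 above 0 on both axes, and GINS1 is alone in the lower left.

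At the fork, the clamp and those subunits of its loader that are among the replication genes differed between letters by like amounts. PCNA, the sliding clamp that holds polymerases on DNA, read 11.11 and 10.82 in B, against 10.47 and 10.12 in A, a difference of 0.67 ± 0.13 (SE, limma adjusted p = 0.150). The clamp loader subunits RFC2, RFC3, RFC4 and RFC5 differed by 0.48, 0.60, 0.50 and 0.55. Other measured probes gave 0.56 for RFC2 and 0.33 for RFC4. RFC1, a loader subunit outside the replication genes described here, differed by -0.13, and by 0.09 at its other measured probe. RFC3 read 8.98 and 8.64 in B, against 8.49 and 7.93 in A, and another of its probes gave a smaller 0.23. RFC4 read 10.97 and 10.67 in B, against 10.50 and 10.14 in A. For PCNA, RFC3 and RFC4 both B arrays lay above both A arrays (19.6% of all genes).

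The polymerase genes were less alike. PRIM1, the primase subunit that makes the RNA primer, read 9.58 and 9.12 in B, against 9.15 and 8.69 in A, and differed by 0.43, with both Slug siRNA arrays above both control siRNA arrays. POLA1, the catalytic subunit of polymerase alpha, read 7.75 and 7.95 in B, against 7.38 and 7.52 in A, a difference of 0.40. POLA2, its accessory subunit, read 9.28 and 9.37 in B, against 9.10 and 8.53 in A, a difference of 0.51. The polymerase alpha arrays separated by letter in both subunits, with the A cultures wider apart in POLA2. POLD1, the catalytic subunit of polymerase delta, set control B apart, with 6.69 and 7.27 in B, against 6.67 and 6.63 in A. POLE2, a subunit of polymerase epsilon, read 9.61 (B) and 9.22 (A) with Slug siRNA, against 8.98 (B) and 8.18 (A) with control siRNA. Its transfection groups did not overlap and differed by 0.83 ± 0.28 (SE, limma adjusted p = 0.292), while the letters differed by 0.59.

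Among EXO1, FEN1, LIG1 and UNG, the largest difference between letters was that of EXO1. EXO1, a 5′ to 3′ exonuclease of repair and replication, read 9.51 and 9.38 in B, against 8.97 and 8.52 in A, and differed by 0.70 ± 0.15 (SE, limma adjusted p = 0.150), and by 1.13 at its other measured probe. FEN1, which trims the flaps of Okazaki fragments, read 11.20 and 11.19 in B, against 10.70 and 10.42 in A, a difference of 0.64. LIG1, which seals them, read 8.15 and 7.99 in B, against 8.11 and 7.56 in A, a difference of 0.23, so here control siRNA A was the low array. UNG, which removes uracil from DNA, read 10.53 and 10.64 in B, against 9.89 and 9.96 in A, a difference of 0.66, while another measured probe of UNG ran the other way at -0.25. UNG was the only exception among the 14 further probes of 13 genes, of which the other 13 had the sign of the probe used here in the comparison of letters. Between transfections 10 of the 14 had the same sign. Over the 14 measured fork genes of 15 listed, the median difference between letters was 0.53, and 11 were separated with B higher (19.6% of all genes).

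The nucleotide genes differed by kind. TK1, the thymidine kinase of the salvage route, read 10.21 and 10.11 in B, against 9.64 and 9.35 in A, a difference of 0.67 ± 0.14 (SE, limma adjusted p = 0.150). RRM2, the small subunit of ribonucleotide reductase that is made in S phase, read 8.93 and 8.98 in B, against 8.51 and 8.43 in A, a difference of 0.48. RRM1, the large subunit of the same enzyme, read 11.94 and 11.84 in B, against 11.79 and 11.75 in A, a difference of 0.12. TYMS, thymidylate synthase, read 10.54 and 10.56 in B, against 10.63 and 10.14 in A, so that control siRNA A alone was low. The median over these 4 genes was 0.32 between letters and 0.13 between transfections.

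The chromatin genes lay close together. UHRF1, which carries DNA methylation over to the new strand, read 10.20 and 10.02 in B, against 9.78 and 9.32 in A, a difference of 0.56 ± 0.14 (SE, limma adjusted p = 0.172). CHAF1B, the middle subunit of chromatin assembly factor 1, read 9.18 and 9.04 in B, against 8.78 and 8.37 in A, a difference of 0.54. CHAF1A, its large subunit, read 6.84 and 6.56 in B, against 6.59 and 6.23 in A, a difference of 0.29, and its arrays overlapped between letters but not between transfections. ATAD2, a chromatin ATPase with a bromodomain, differed by 0.50 under either siRNA, with 8.73 and 8.51 in B against 8.23 and 8.01 in A. SLBP, which binds the stem loop of histone mRNAs, read 9.90 and 9.75 in B, against 9.43 and 9.54 in A, a difference of 0.33. All of these but CHAF1A were separated by letter with B higher (19.6% of all genes), and the median over the 5 genes was 0.50.

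The regulators of S phase entry held both the largest difference between letters and the largest between transfections. DTL, the substrate receptor of the ubiquitin ligase that removes CDT1 in S phase, read 7.67 and 7.90 in B, against 6.84 and 6.80 in A. That was a difference of 0.96 ± 0.14 (SE), or 1.95-fold, with a limma adjusted p of 0.129, and it stood at rank 15 of the 11200 genes ordered by replicate B minus replicate A. CCNE1, the cyclin E that drives the G1 to S step, read 8.50 and 7.51 in B, against 7.86 and 6.46 in A, a difference of 0.85 at rank 31. E2F1, the transcription factor, read 6.41 and 6.51 in B, against 6.09 and 6.61 in A, a difference of 0.11. E2F1 was read with a bead standard error of 7.06% to 12.5% of the signal, beside a median of 3.43% over the replication genes. CCNE2 was not above background.

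Slug siRNA against control siRNA gave differences with a smaller median over the replication genes, with a median of 0.21 and a range of -0.31 to 1.19, beside a median of 0.01 over all genes. None of the 40 passed an adjusted p of 0.05 in limma, where 13 of all genes did (0.116%), and the lowest adjusted p among them was 0.254. That fit had no term for the letter. With one, limma called 3.18% of all genes and 2 of the 40, CCNE1 (adjusted p = 0.021) and POLE2 (adjusted p = 0.047). At an unadjusted p below 0.05 there were 4 higher with Slug siRNA (6.18% of all genes) and 0 lower (6.87%). The Slug siRNA array was the higher one in both letters for 24 of the 40 (34.8% of all genes) and the lower one in both for 5 (32.2%). Both Slug siRNA arrays stood above both control siRNA arrays for CDT1, GINS3, PRIM1, POLE2, LIG1, CHAF1A and CCNE1, which is 7 of 40 (23.6% of all genes), and below them for E2F1 (21.5%). The count of separated genes was thus under the background share in each direction.

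CCNE1 had the largest difference between transfections. It read 8.50 (B) and 7.86 (A) with Slug siRNA, against 7.51 (B) and 6.46 (A) with control siRNA, a difference of 1.19 ± 0.36 (SE), or 2.29-fold, with a limma adjusted p of 0.254. The Slug siRNA arrays did not overlap the control siRNA arrays, although Slug siRNA A and control siRNA B lay close, since the letters differed too. GINS3 differed by 0.68 ± 0.28 and MCM10 by 0.66 ± 0.32 (SE, limma adjusted p = 0.377 and 0.459), and the other measured probe of MCM10 gave 0.33. E2F1 was the lowest, with 6.41 (B) and 6.09 (A) with Slug siRNA, against 6.51 (B) and 6.61 (A) with control siRNA, a difference of -0.31 (limma adjusted p = 0.546). POLA1 and GINS4 were lower with Slug siRNA in both letters, each by a mean of -0.17.

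**Figure D4:**
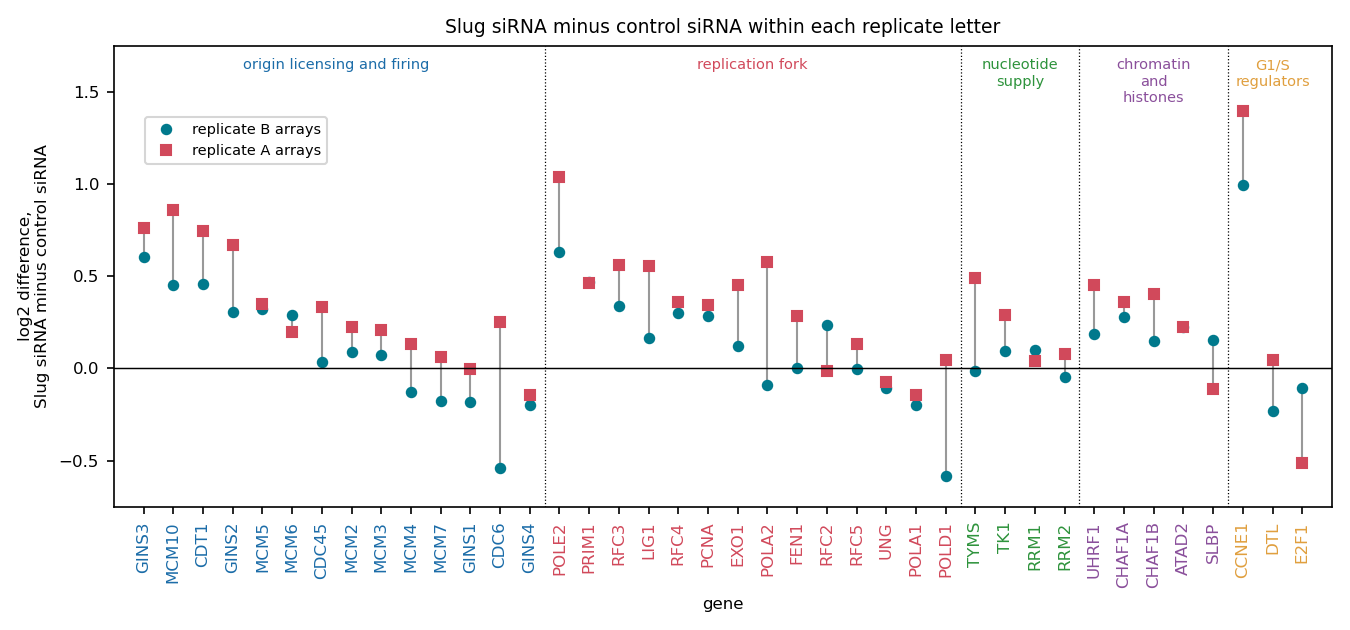
Slug siRNA minus control siRNA difference of each replication gene on the log2 scale, by step, with one point for replicate B and one for replicate A. The A points lie above the B points for 34 of the 40 genes, and CCNE1 is highest, at 0.99 in B and 1.40 in A.

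The difference between transfections was not the same in the 2 letters. In replicate B its median was 0.11, with 26 of the 40 genes higher with Slug siRNA (50.4% of all genes), and in replicate A it was 0.29, with 33 higher (52.1%). It was larger in A than in B for 34 of the 40, beside 5815 of all 11200 genes. Put the other way, the replicate B minus replicate A difference had a median of 0.47 in Slug siRNA cells and 0.66 in control siRNA cells. Control siRNA A was the lowest of the 4 arrays for 33 of the 40 (29.3% of all genes), as in CCNE1, POLE2, GINS2 and MCM10. Without control siRNA A, the median Slug siRNA minus control siRNA difference was -0.07 over the 39 genes still measured, and without Slug siRNA B it was -0.01, whereas it was 0.43 without Slug siRNA A and 0.51 without control siRNA B. These fits had no term for the letter, and with 1 array left out the letters were unbalanced between the transfections. The difference between letters therefore entered these values, which cannot show whether the direction depended on a culture. Within a letter the median was 0.11 in B and 0.29 in A. The median replicate B minus replicate A difference was 0.48 to 0.66 when any 1 array was left out. That fit had a term for transfection, so each value is the difference within the transfection that kept both letters. These values nearly repeat the medians of 0.47 and 0.66 above and are no separate check. With only 1 array per transfection and letter, the difference between the letters' effects has no error of its own.

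Across the 40 genes, the replicate B minus replicate A difference in Slug siRNA cells and that in control siRNA cells, which share no array, had a Pearson r of 0.64, beside 0.43 over all 11200 genes. For the Slug siRNA minus control siRNA difference in B and in A the values were 0.74 and 0.58. Genes are not independent replicates, and the 4 arrays were normalized together.

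Another 84 genes of the same steps were taken from general knowledge of replication, and their median difference between letters was smaller. Of the 79 that were measured, 37 had both B arrays above both A arrays (19.6% of all genes) and 5 had them below (18.6%), and the median was 0.15, beside 0.01 over all genes. At an unadjusted p below 0.05 there were 20 higher in B (8.06% of all genes) and 1 lower (8.58%), and none passed the adjusted threshold in either comparison as fitted here. E2F2, an activator of the E2F family, was highest, with 8.43 and 7.74 in B against 7.41 and 6.67 in A, a difference of 1.05 ± 0.13 (SE, limma adjusted p = 0.118). RBL1, the retinoblastoma relative p107, differed by 0.84. CDC25A, the phosphatase that activates the S phase kinase, differed by 0.57, and by 0.18 at its other measured probe. E2F2 and RBL1 also read higher with Slug siRNA, by 0.71 and 0.76, and CDC25A by 0.83 at one probe and 0.47 at the other, none past the threshold as fitted here. With the letter as a term, limma called 3 of the 79 between transfections, where it called 3.18% of all genes. These were E2F2, CDC25A and WEE1 (limma adjusted p = 0.048, 0.039 and 0.033).

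Among the other licensing genes, the largest differences between letters were those of MCMBP, which binds the MCM ring (0.75), MTBP (0.71) and DONSON (0.65), both of which act in origin firing. MTBP passed the detection filter through the B cultures alone, where both were above background, and was at least 1.39-fold higher in B. Its 0.71 rests on background readings in both A cultures. GMNN, geminin, the inhibitor of CDT1, differed by 0.53 between transfections. At the fork, TIPIN of the fork protection complex differed by 0.82 between letters, and the polymerase delta subunit POLD3 and WDHD1, which tethers polymerase alpha, by 0.50 each. TIPIN and WDHD1 differed by 0.48 and 0.45 between transfections, and WDHD1 by 0.16 at its other measured probe.

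For nucleotide supply, CAD, which starts pyrimidine synthesis, and DUT, which breaks down dUTP, were higher in B by 0.56 and 0.52, although another measured probe of DUT ran the other way at -0.64. RRM2B, the p53-induced ribonucleotide reductase subunit, was lower at -0.37. CAD and SHMT1, a serine hydroxymethyltransferase of folate metabolism, were lower with Slug siRNA at -0.60 and -0.42. The chromatin genes HELLS, ASF1B and SUPT16H were higher in B by 0.42, 0.39 and 0.37. RBBP4, a histone chaperone, and SUPT16H of the FACT complex were lower with Slug siRNA at -0.43 and -0.32, but 2 other measured probes of RBBP4 were higher, at 0.41 and 0.15. WEE1, the kinase that holds back cyclin-dependent kinases, had the lowest adjusted p of these genes between transfections, with 8.71 (B) and 8.60 (A) with Slug siRNA against 7.91 (B) and 7.67 (A) with control siRNA. That difference was 0.87 ± 0.17 (SE, limma adjusted p = 0.107), while WEE1 differed by only 0.18 between letters.

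Genes of G2 and mitosis, the next phases of the cycle, had differences between letters nearer 0. Over 45 such genes the replicate B minus replicate A difference had a median of -0.19 in Slug siRNA cells and 0.13 in control siRNA cells, beside 0.47 and 0.66 for the replication genes. Both B arrays lay above both A arrays for 3 of the 45 (19.6% of all genes) and below for 12 (18.6%). CCNB1, cyclin B1, read 8.78 and 9.13 in B, against 9.59 and 9.52 in A, a difference of -0.60 (limma adjusted p = 0.174), opposite to MCM2. CENPF, a kinetochore protein, was also lower in B at -0.43, and SPC25 of the kinetochore was higher at 0.45. Between transfections AURKA differed by -0.40, PTTG1 by -0.36 and CDCA8 by 0.36. The Slug siRNA minus control siRNA difference was larger in A than in B for 45 of the 45, as it was for 34 of the 40 replication genes.

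**Figure D5:**
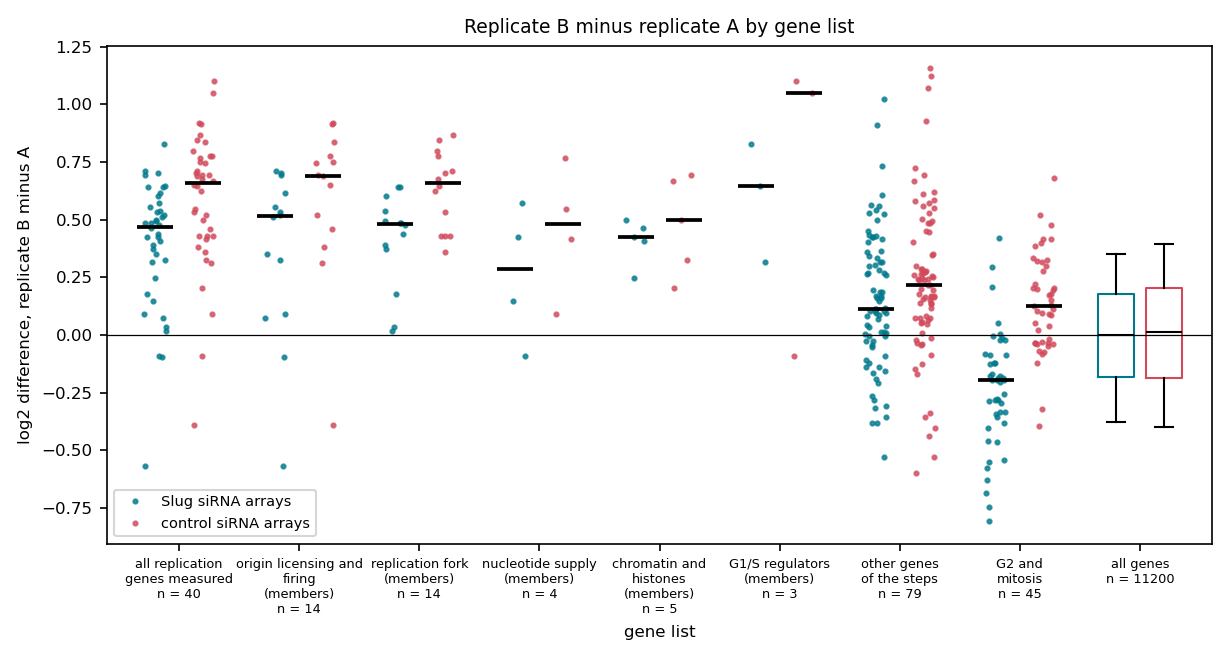
Replicate B minus replicate A difference on the log2 scale by gene list, in Slug siRNA cells (left of each pair) and control siRNA cells (right); points are genes and bars medians, and the boxes for all 11200 genes show the median and quartiles, with whiskers at the 10 and 90 percentiles. The replication genes centre on 0.47 with Slug siRNA and 0.66 with control siRNA, and the G2 and mitosis genes on -0.19 and 0.13.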

How the data were processed

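RNA levels were read on 4 bead arrays. The deposited intensities, averaged over a probe's beads, were linear and, per the file headers, not normalized. The deposited counts of beads per probe and the deposited standard errors over beads describe technical error only, and 2 arrays per group limit the precision. A deposited detection p-value per probe and array ranks the probe among negative controls. The authors' normalized intensities served as an alternative only, whose making is not given in the sources used here. Another 8 per-sample columns were left aside.

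In R 4.3.3 with limma 3.58.1, background was corrected by the normal-exponential model with negative controls inferred from the detection p-values and an offset of 16, arrays were quantile normalized, and log2 was taken. Probes with detection p below 0.05 on at least 2 arrays were kept (19446 of 47323), and the brightest stood for a gene. In the platform's annotation 30113 probes had 1 symbol and 8 had several, and the others are unnamed here. Differences were fitted by lmFit and eBayes over all kept probes, with Benjamini-Hochberg adjustment over all of them and a threshold of 0.05. Slug siRNA against control siRNA was fitted with group only, and replicate B against A with a group term. An exact permutation test of 2 arrays against 2 cannot go below p = 0.333. A fold change of a dim gene is understated by the offset. A gene not above background on any array of a group has a lower bound, set against the dimmest probe detected on each array.

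The genes, the lists and the tests were chosen with earlier results of these data known. The text names every replication gene. From each step of the other genes it names up to 3 with the largest difference between letters and up to 2 with the largest between transfections. For G2 and mitosis it names the 3 largest of each. RFC1 and further probes were named after their values were seen. Alternatives changed the background correction, offset, scaling, filter, probe choice, the replicate block and the arrays included. A variance trend with intensity was added after seeing the data. Promoter sequences are from RefSeq, GRCh38.p14. Figures were drawn with matplotlib 3.10.9.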

Additional observations from a re-analysis of the deposited data

Results flagged for a closer look

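Several values had opposite signs under the 2 transfections when replicate B was compared with replicate A. CDC6 gave -0.10 in Slug siRNA cells and 0.69 in control siRNA cells, on the log2 scale. TYMS gave -0.090 and 0.41 in the same order, and E2F1 gave 0.32 and -0.093. CDC6 was above background on 1 array of each transfection. The median over the 45 genes of G2 and mitosis was -0.19 in Slug siRNA cells and 0.13 in control siRNA cells. These differences between the transfections were not tested, since each value compares 1 array with 1 array.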

How the results depend on the processing

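The median replicate B minus replicate A difference of the replication genes (0.52) kept its sign in every setting run. It lay between 0.45 and 0.57 under the processing alternatives. With 1 array left out it was 0.48 to 0.66, where no test was possible. Those values compare the letters only within the transfection that kept both, so they are no separate check. The number of replication genes called between letters (0) became 30 of 40 without background correction, 28 with an offset of 50 and 29 with the variance trend added after seeing the data, and the number of all genes called (0) became 1400, 861 and 1066 in the same settings. It was 0 with median scaling, the authors' table, no filter, the mean over a gene's probes and no group term. The prior degrees of freedom of limma were 82.8, 37.4 and 80.4 in the settings with calls, and 5.59 in the fit reported.

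Between transfections the number of all genes called (13) was 158 without background correction, 217 with an offset of 50, 34 with median scaling, 3 in the authors' table, 0 without the filter, 216 with the variance trend, and 0 to 9 when 1 array was left out. The median over the replication genes (0.21) ranged from -0.067 to 0.51 when 1 array was left out. It was -0.067 without control siRNA A and -0.014 without Slug siRNA B. These fits had no term for the letter, so with 1 array left out the difference between letters entered them. With the replicate block, 356 of all genes were called (3.18%) and 2 of the replication genes, CCNE1 (limma adjusted p = 0.021) and POLE2 (adjusted p = 0.047), and 3 of the 79 other genes of the same steps, WEE1, CDC25A and E2F2; in the other settings run, 0 of the replication genes were called, with 4 at an unadjusted p below 0.05 in the fit reported. The labels number the biological replicates without saying what cultures of one number share, and deviations of same-lettered arrays from their group means correlated at r = 0.36 over 19446 probes. The cause of these changes was not tested. Values near background, as for CDC6 and GINS1, limit what could be read for those genes.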
